A study of Mus musculus with 10 samples.

Results

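Immunoglobulin variable (V) segments were described in RNA sequencing libraries of primary mouse peritoneal macrophages, the resident phagocytes of the abdominal cavity. Members were the rows of the deposited gene table named Ighv, Igkv or Iglv with a digit and with a mean of at least 1 normalized count over the 10 libraries. They numbered 143 of 348 V rows in a table of 54532 rows. Heavy chain segments gave 69 of 185 rows, kappa light chain segments 71 of 160 and lambda light chain segments 3 of 3. Values of these same libraries chose the members, so their overall level is a description.

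The study asked how deletion of Trem1, which encodes an activating receptor of myeloid cells, alters gene expression in aging macrophages. The 3 groups, named here by letter and replicate, were young wild type (YA, YB, YC and YE), aged wild type (W3, W4 and W6) and aged Trem1-/- (T1, T2 and T3). The last are called the libraries labelled Trem1-/-, because Trem1 was read in them. A young Trem1-/- group was not analysed here. The labels give no age in months, sex, strain, sorting step, kind of Trem1 allele, or statement that libraries came from separate mice, so the replicate spread behind each p-value could be technical.

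A V segment encodes most of the variable domain of an antibody chain. In developing B cells, V(D)J recombination joins 1 V segment to a joining segment, with a diversity segment between them in heavy chains, and a B cell and its descendants then transcribe mainly the joined heavy and light chain genes. Macrophages do not rearrange these loci. The peritoneal cavity is rich in B-1 cells, a B cell type that makes natural antibodies and recurrently uses a few V pairs. Ighv11-2 with Igkv14-126 and Ighv12-3 with Igkv4-91 are known as such pairs, both of which bind phosphatidylcholine, a membrane lipid.

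The V exons of 6 segments are shown, the 3 heavy chain segments that led a library and the light chain segment most used beside each. They are germline reference sequences of the coding strand (GRCm38, GENCODE M21) from the V exon (its last 300 bases, or all 298 for Igkv14-126), and not sequences of the libraries' transcripts. Capitals mark the last in-frame cysteine codon and all that follows it, where the germline part of the third complementarity-determining loop begins. Ighv11-2 lies at chr12:114048241-114048540 (minus strand), Ighv12-3 at chr12:114366521-114366820 (minus strand) and Ighv1-59 at chr12:115335082-115335381 (minus strand). Igkv14-126 lies at chr6:67896345-67896642 (plus strand), Igkv4-91 at chr6:68768555-68768854 (minus strand) and Iglv1 at chr16:19085017-19085316 (minus strand).
Ighv11-2: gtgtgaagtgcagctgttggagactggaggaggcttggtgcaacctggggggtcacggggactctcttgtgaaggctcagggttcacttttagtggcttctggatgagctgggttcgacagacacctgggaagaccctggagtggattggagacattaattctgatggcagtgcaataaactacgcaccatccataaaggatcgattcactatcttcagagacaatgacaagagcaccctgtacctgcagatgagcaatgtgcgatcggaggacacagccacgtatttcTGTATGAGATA
Igkv14-126: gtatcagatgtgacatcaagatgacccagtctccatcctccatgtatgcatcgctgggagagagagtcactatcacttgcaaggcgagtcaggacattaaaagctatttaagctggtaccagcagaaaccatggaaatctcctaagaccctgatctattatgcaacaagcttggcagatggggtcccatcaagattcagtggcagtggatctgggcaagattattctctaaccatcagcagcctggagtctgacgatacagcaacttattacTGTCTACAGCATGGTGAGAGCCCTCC
Ighv12-3: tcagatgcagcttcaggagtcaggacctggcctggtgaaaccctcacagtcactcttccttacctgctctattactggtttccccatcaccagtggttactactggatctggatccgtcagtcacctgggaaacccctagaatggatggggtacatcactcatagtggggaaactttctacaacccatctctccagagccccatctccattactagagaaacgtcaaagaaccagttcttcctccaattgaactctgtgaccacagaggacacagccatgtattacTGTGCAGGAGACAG
Igkv4-91: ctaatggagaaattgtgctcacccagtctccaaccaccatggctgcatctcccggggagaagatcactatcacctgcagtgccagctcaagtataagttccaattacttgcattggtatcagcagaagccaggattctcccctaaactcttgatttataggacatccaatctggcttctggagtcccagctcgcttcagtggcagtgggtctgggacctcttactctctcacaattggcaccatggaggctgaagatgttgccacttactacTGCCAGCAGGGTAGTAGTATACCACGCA
Ighv1-59: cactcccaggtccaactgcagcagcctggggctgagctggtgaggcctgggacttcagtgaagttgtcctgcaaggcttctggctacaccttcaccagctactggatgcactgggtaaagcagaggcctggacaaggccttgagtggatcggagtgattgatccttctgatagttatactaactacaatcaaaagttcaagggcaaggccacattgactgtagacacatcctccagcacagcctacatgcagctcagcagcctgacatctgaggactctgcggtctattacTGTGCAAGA
Iglv1: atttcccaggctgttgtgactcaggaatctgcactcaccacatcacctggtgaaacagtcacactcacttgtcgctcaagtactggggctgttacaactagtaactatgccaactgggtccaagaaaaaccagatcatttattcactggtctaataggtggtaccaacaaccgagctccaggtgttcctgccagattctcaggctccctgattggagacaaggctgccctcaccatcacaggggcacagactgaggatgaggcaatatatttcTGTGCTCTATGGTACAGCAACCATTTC

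The leading segments are distant in sequence. Aligned over their V exons, Ighv11-2 was 61.9% identical to Ighv12-3 and 60.0% identical to Ighv1-59, and Igkv14-126 was 66.7% identical to Igkv4-91. Closer relatives exist in the genome, and how reads that match several genes were counted is not given in the sources used here. Ighv11-1 is 98.7% identical to Ighv11-2 over the V exon and had 2 reads in all 10 libraries. Iglv1 and Iglv2 are 97.4% identical, so their split is uncertain. Of the 50-base windows of the annotated transcript, 38.6% recur in another gene for Ighv11-2, 36.4% for Ighv1-59, 22.2% for Iglv1, 5.18% for Igkv4-91 and 0% for Igkv14-126 and Ighv12-3.

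Trem1 was read in every library, including those labelled Trem1-/- (23, 132 and 12 reads in T1, T2 and T3, against 14 to 50 in aged wild type and 10 to 21 in young wild type). The deleted part of the gene is not given, so these reads do not check the genotype, and the groups are named as labelled. Total reads per library were 2663744 to 5603498. Macrophage markers, which define the labelled cell type, were abundant: the 12 listed genes summed to 74610 to 81570 normalized counts in the young libraries and 63555 to 82737 in T1 to T3. The aged wild-type sums were lower, at 24513 to 38516. B cell markers were present too, with 14 genes summing to 1893 to 3956 normalized counts in the young libraries, 9124 to 14864 in W3 to W6 and 3799 to 8050 in T1 to T3.

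V transcripts were scarce in young wild type and more abundant in both aged groups. V reads numbered 943, 1629, 712 and 382 in YA, YB, YC and YE, or 0.0122% to 0.0291% of library reads. They numbered 2314, 1996 and 5119 in W3, W4 and W6, and 2116, 1866 and 3166 in T1, T2 and T3. As summed normalized counts, V segments stood at 781 ± 238 (SD, n = 4) in the young group, 3246 ± 1235 (n = 3) in aged wild type and 2430 ± 1093 (n = 3) in T1 to T3. The highest young library, at 1003, lay below the lowest of either aged group (2178 and 1495), while the aged groups overlapped. No p-value is given for sums over members chosen on these data.

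Summed V counts were of the order of the B cell receptor signalling pair Cd79a and Cd79b, whose products carry the receptor's signal. The V sum per summed Cd79a and Cd79b count was 1.32 to 1.37 in the 4 young libraries. It was 0.971, 1.20 and 1.76 in W3, W4 and W6, and 1.65, 2.19 and 2.03 in T1, T2 and T3. Heavy chain V counts per Ighm count, the constant region of IgM, were 0.139 to 0.154 in young wild type, 0.127 to 0.179 in aged wild type and 0.156 to 0.206 in T1 to T3. In bulk samples such as these, fewer cells of a type and less RNA per cell cannot be told apart.

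Heavy chain usage, the share of a locus's member V reads that fell on 1 segment, was broad in young libraries and narrower in aged ones. Ighv11-2 led all 4 young libraries with 10.4%, 21.1%, 21.1% and 23.3% of heavy V reads in YA, YB, YC and YE (40 of 385, 129 of 611, 63 of 299 and 37 of 159 reads). Ighv9-3 came second in each of them, at 5.07% to 7.02%. YA stood below the other 3 in its Ighv11-2 share; its exact binomial 95% interval was 7.53% to 13.9%, against lower bounds of 16.6% to 17.9% for the others. Such intervals hold counting error alone, because several reads can come from 1 molecule and the labels name no molecular identifiers.

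Each aged wild-type library was led by a different heavy chain segment. In W3, Ighv1-59 took 87.8% of heavy V reads (944 of 1075; 85.7% to 89.7%). In W4, Ighv12-3 took 25.0% (201 of 804; 22.0% to 28.1%), followed by Ighv5-16 with 18.9% and Ighv1-55 with 11.2%. In W6, Ighv11-2 took 73.6% (1421 of 1930; 71.6% to 75.6%). The W4 leading share lay within the intervals of YC and YE, and those of W3 and W6 lay above all of them. Ighv11-2, the leader in young libraries, held 0.372% in W3 and 1.49% in W4.

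The libraries labelled Trem1-/- were led by the same 2 known B-1 segments as W4 and W6. Ighv12-3 took 55.5% of heavy V reads in T1 (429 of 773; 51.9% to 59.0%). Ighv11-2 took 51.6% in T2 (361 of 700; 47.8% to 55.3%) and 79.6% in T3 (989 of 1242; 77.3% to 81.8%). Ighv2-2 came second in T1 and T2, with 47 of 773 and 70 of 700 reads, and had 0 reads in T3 (exact 95% interval up to 0.297%).

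**Figure D1:**
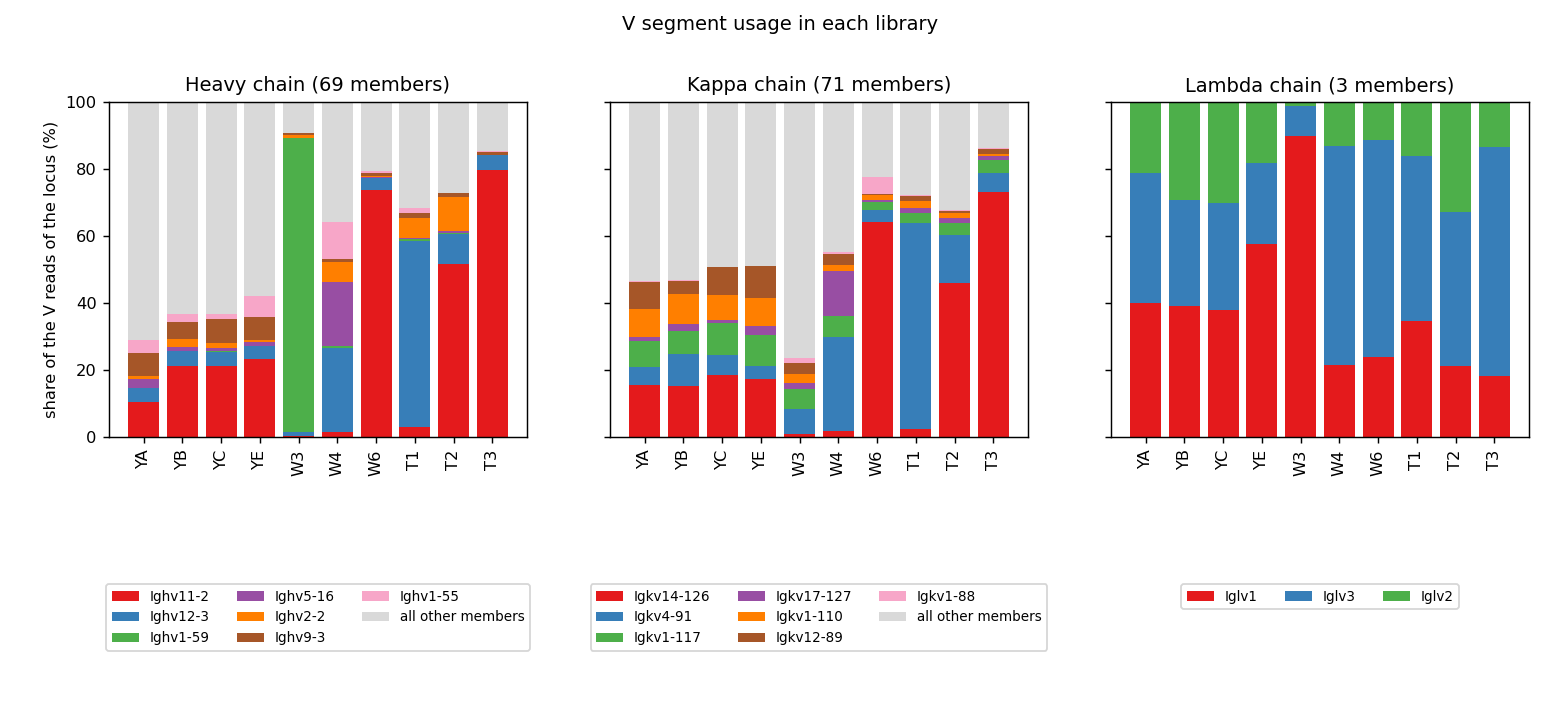
Share of each locus's V reads (percent) in every library, stacked by segment, for heavy (left), kappa (middle) and lambda chains (right); grey is the sum of all other members. Ighv11-2 (10.4% to 23.3%) and Igkv14-126 (15.2% to 18.4%) led the young libraries, whereas single segments reached 87.8% of heavy and 73.2% of kappa reads in aged ones.

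In 5 of 6 aged libraries the leading kappa segment was the known partner of the leading heavy segment. Igkv14-126 led the 4 young libraries with 15.4%, 15.2%, 18.4% and 17.4% of kappa V reads in YA, YB, YC and YE. It led W6 with 64.1% (1898 of 2963 reads) and T2 and T3 with 45.9% (496 of 1081) and 73.2% (1348 of 1842). Igkv4-91 led where Ighv12-3 led, with 28.1% in W4 (301 of 1070) and 61.5% in T1 (776 of 1262). In W4 the second kappa segment was Igkv17-127 with 13.4%.

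W3, in which Ighv1-59 dominated the heavy chain, had no dominant kappa segment. Its leading kappa segment was Igkv8-24 with 7.72% (25 of 324 reads; 5.06% to 11.2%), followed by Igkv4-91 with 7.41%. Its light chain reads lay mostly in the lambda locus instead. Lambda segments took 73.8% of its light chain V reads (71.3% to 76.3%), against 14.8% to 16.1% in young wild type, 10.2% and 7.09% in W4 and W6, and 4.26% to 7.29% in T1 to T3. Iglv1 took 89.7% of lambda V reads in W3 (821 of 915; 87.6% to 91.6%).

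The lambda share of constant region counts showed the same library apart from the rest. It was 76.2% in W3, 26.8% to 31.8% in young wild type, 20.7% and 14.0% in W4 and W6, and 10.1% to 20.7% in T1 to T3. Iglc1, the constant region that Iglv1 is usually joined to, had 1548 reads in W3 against 41 to 194 in each of the other 9 libraries.

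Outside W3, Iglv1 and Iglv3 led the lambda locus by turns, in some libraries by a narrow margin. In the young libraries Iglv1 held 37.9% to 57.6% and Iglv3 24.2% to 38.9%, with as few as 1 read between them (36 and 35 reads in YA). Iglv3 led in W4 and W6 (65.6% and 64.6%) and in T1, T2 and T3 (49.4%, 45.9% and 68.3%). Lambda reads were few outside W3, from 33 to 226 per library. Among young libraries the Iglv3 share was highest in YA, with an exact 95% interval of 28.8% to 49.7%. This interval overlapped those of T1 (38.1% to 60.7%) and T2 (35.0% to 57.0%). It lay below that of T3 (57.1% to 78.1%) and those of W4 and W6.

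Heavy and light chain segments of the known pairs were high in the same libraries and, for Ighv11-2 and Igkv14-126, low in the same libraries. Ighv11-2 and Igkv14-126 had 1421 and 1898 reads in W6, 361 and 496 in T2 and 989 and 1348 in T3. Where the pair was low, both were low: 4 and 3 reads in W3, 12 and 17 in W4, and 22 and 31 in T1. The number of Ighv11-2 reads per Igkv14-126 read was 0.749 (exact 95% interval 0.698 to 0.802), 0.728 (0.634 to 0.835) and 0.734 (0.675 to 0.797) in the 3 libraries this pair dominated. In young libraries it was 0.556, 0.977, 0.984 and 1.12 in YA, YB, YC and YE, with wider intervals (0.368 to 0.829 in YA, 0.682 to 1.85 in YE).

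Ighv12-3 had 0.668 reads per Igkv4-91 read (0.556 to 0.801) in W4 and 0.553 (0.490 to 0.623) in T1. Over all 10 libraries the ratio was 0.554, within a range of 0.329 to 0.857 in single libraries. This pair was less alike in W3, where Ighv12-3 took 1.02% of heavy and Igkv4-91 7.41% of kappa V reads. With libraries ranked by usage, heavy and light segments had the same rank in 5 of 10 libraries for this pair. For Ighv11-2 and Igkv14-126 they had the same rank in 6 of 10. Ighv1-59 had 1.15 reads per Iglv1 read (1.05 to 1.26) in W3, and at most 0.231 in any other library, where it had 0 to 6 reads. These ratios describe reads within a library, since the data do not join heavy and light chains of 1 cell.

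**Figure D2:**
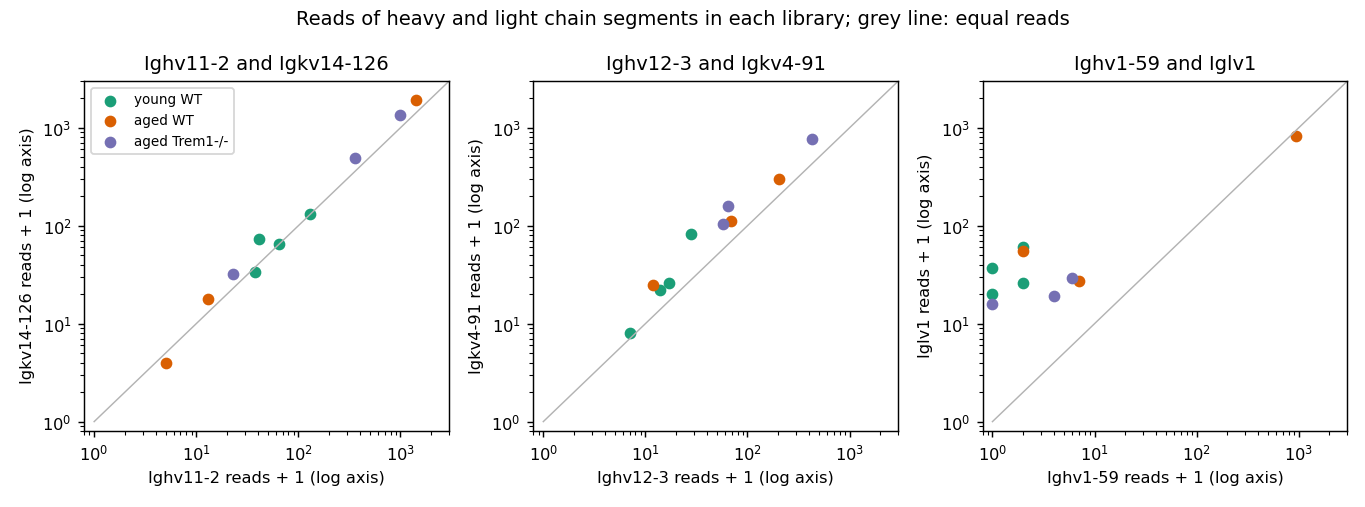
Reads + 1 of a heavy chain segment (x axis, log scale) and a light chain segment (y axis, log scale) in each of the 10 libraries, for 3 pairs of leading segments; the grey line marks equal reads. The first and second pair spread along the line, while Ighv1-59 and Iglv1 are high together in W3 (944 and 821 reads).

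Concentration was measured by the inverse Simpson number, the count of equally used segments that would give the same chance of drawing 1 segment on both of 2 reads. For heavy chains it was 32.6, 16.7, 16.8 and 14.4 in YA, YB, YC and YE, and 1.30, 8.21 and 1.84 in W3, W4 and W6. It was 3.17, 3.50 and 1.57 in T1, T2 and T3. All 4 young libraries lay above all 6 aged libraries, and the 2 aged groups overlapped. The 5 most used segments held 29.6% to 44.0% of heavy V reads in young wild type, 68.3% to 91.9% in aged wild type and 68.4% to 87.0% in T1 to T3.

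For kappa chains the inverse Simpson number was 18.6, 18.2, 15.1 and 16.2 in YA, YB, YC and YE. It was 28.3, 9.09 and 2.40 in W3, W4 and W6, so the library that used lambda had the most even kappa usage of all 10. It was 2.61, 4.22 and 1.85 in T1, T2 and T3, below every young library.

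Depth differed between libraries, and aged libraries had more V reads, so the number of segments was also compared at equal depth. At 159 heavy V reads, the number in the shallowest library, 47.0 to 51.8 segments were expected in young libraries, 15.3, 33.4 and 27.2 in W3, W4 and W6, and 34.0, 32.0 and 20.1 in T1, T2 and T3. Without this adjustment the mean numbers of heavy segments read were 59.8, 56.3 and 56.0 in the 3 groups. At 190 kappa V reads the expected numbers were 43.7 to 47.1 in young wild type, 48.8, 41.8 and 31.4 in aged wild type and 35.4, 36.0 and 23.9 in T1, T2 and T3.

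Without the leading segment of each library, young libraries still lay above all aged ones for heavy chains. The inverse Simpson number of the remaining heavy reads was 35.3 to 40.0 in young wild type, 25.0, 9.44 and 27.8 in W3, W4 and W6, and 25.0, 11.6 and 15.1 in the libraries labelled Trem1-/-. For kappa chains it was 20.3 to 23.6 in young wild type, 16.6 to 28.7 in aged wild type and 11.0 to 31.7 in T1 to T3, so the ranges overlapped.

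**Figure D3:**
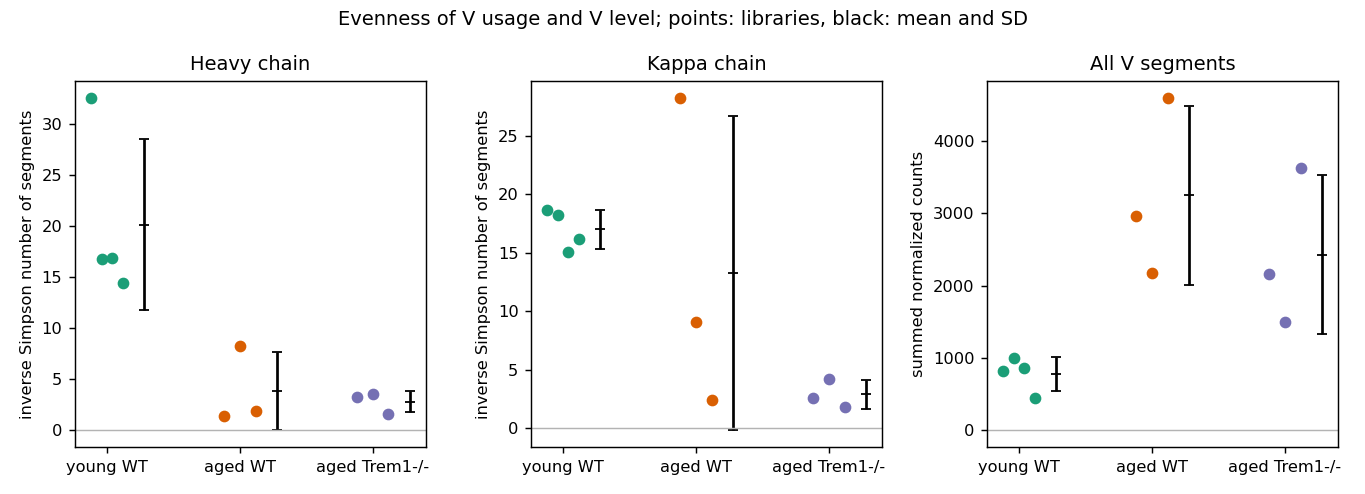
Inverse Simpson number of heavy (left) and kappa segments (middle) and summed normalized counts of all V segments (right) by group; points are libraries, black marks are the mean and SD. Young libraries lie at 14.4 to 32.6 for heavy chains, above the aged libraries at 1.30 to 8.21, while W3 has the highest kappa value, 28.3.

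Usage profiles resembled one another among young libraries and not among aged wild-type ones. The Morisita index of 2 libraries, which is 0 without shared segments and close to 1 for equal usage, was 0.831 to 0.997 over the 6 pairs of young libraries for heavy chains and 0.940 to 1.0 for kappa chains. Over the 3 pairs of aged wild-type libraries it was 0.00647 to 0.0685 for heavy and 0.0710 to 0.515 for kappa chains. T2 and T3 were alike in heavy and kappa usage (0.901 and 0.891), and T1 differed from both (0.243 with T2 and 0.103 with T3 for heavy chains). W6 resembled T3 more than either other library of its own group (0.997 for heavy and 0.987 for kappa chains).

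The 6 segments whose exons are printed above carried much of the V signal in aged libraries. Their share of all V reads was at most 26.7% in a young library, 78.1%, 28.2% and 69.4% in W3, W4 and W6, and 61.0%, 58.8% and 79.3% in T1, T2 and T3. The other 137 members summed to 588 ± 181 (SD, n = 4) normalized counts in the young group, 1207 ± 489 (n = 3) in aged wild type and 736 ± 114 (n = 3) in the libraries labelled Trem1-/-. W3 held 649 of these, within the young range of 325 to 738. The 6 segments were chosen in these same libraries, as leading heavy chain segments and the light chain segments most used beside them. Their high share in aged libraries, and the remainder without them, thus follow in part from that choice.

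Single libraries also carried less abundant segments. For 15 of 143 members, 1 library held more than 50% of the summed normalized count. A low segment can enter the members through 1 library, and aged libraries held more V counts, so the number per group is not compared. Ighv1-59 had 98.6% of its sum in W3. Igkv1-99 had 38 of 43 reads in T2, Ighv5-16 had 152 of 185 in W4, and Igkv1-88 had 149 of 177 in W6. Igkv1-99 and Ighv5-16 are named here because of that pattern, after their values were seen.

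Members differed widely in depth. Of the 143, 49 were read in all 10 libraries, and 17 would fall below a mean of 1 without their highest library. Just inside the threshold were Igkv14-126-1 (mean 1.06), Ighv1-74 (1.05) and Igkv4-77 (1.03 normalized counts), and just outside were Igkv6-14 (0.973), Ighv5-2 (0.957) and Ighv1-61 (0.949). A further 110 V rows had reads but a lower mean, 95 had none, and together the rows outside the members held 1.91% of V reads. Of the members, 6 are annotated as pseudogenes and held 0.569% to 1.38% of V reads per library. Annotated exonic lengths were similar (347 to 480 bases for heavy, 298 to 404 for kappa and 366 to 391 for lambda members), and the leading segment per exonic base was the same in 30 of 30 combinations of locus and library.

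Ighv7-1, a segment known for phosphorylcholine-binding antibodies of B-1 cells, was read at a low level without the concentration of the other B-1 segments. It had 6, 6, 3 and 1 reads in YA, YB, YC and YE, 0, 1 and 3 in W3, W4 and W6, and 1, 1 and 7 in T1, T2 and T3. Igkv7-33, its known light chain partner, had 1 read in all and is no member. Of the 7 B-1 segments listed, 4 were high enough to test (Ighv11-2, Ighv12-3, Igkv14-126 and Igkv4-91), and their tests follow.

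The first comparison, aged against young wild type, asks what differed with age. Of the 143 members, 29 had a mean of at least 10 normalized counts and were tested with limma on log2(normalized count + 1). The other 114 were too low to test, and some of the 29 passed only through libraries in which they were high, so the counts are not those of all members. In aged wild type 4 were higher and 0 lower at an adjusted p of 0.05 (8 higher and 1 lower at an unadjusted p of 0.05; edgeR 9 and 0, DESeq2 6 and 0), while over all 11506 genes tested 14.3% were higher and 19% lower. The median log2 fold change of the 29 was 1.05, against -0.02 over all genes, but the filter used these same libraries. With all genes of a mean of at least 1 fitted, the median of the 143 members was 0.45, against 0.12 over all genes. The authors' deposited table, which tested 123 members, called 12 of them higher and 0 lower, with 10.6% and 11.2% of its 17359 genes called in the 2 directions.

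Iglv3, 1 of the 3 lambda segments, rose in aged wild type. It had 30.5, 29.6, 25.2 and 9.30 normalized counts in YA, YB, YC and YE, and 105, 87.3 and 131 in W3, W4 and W6. The groups did not overlap (18.4% of all tested genes were higher in this way), and the log2 fold change was 2.25 ± 0.38 (SE; limma adjusted p = 0.00118). Igkv6-15 rose from 7.27 ± 4.33 (SD, n = 4) to 24.1 ± 9.62 (n = 3) normalized counts (1.66 ± 0.46, limma adjusted p = 0.0164). Ighv1-53 stood at 5.98 ± 2.67 (n = 4) and 20.2 ± 8.58 (n = 3) (1.61 ± 0.52, limma adjusted p = 0.0335). Its mean in the libraries labelled Trem1-/- was 7.56. Ighv1-53 thus passed the filter of 10 only through aged wild type, and its test is not independent of that filter.

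Igkv1-88 was also called higher, with a log2 fold change of 3.70 ± 0.96 (limma adjusted p = 0.0118), and edgeR called it as well. DESeq2 did not call this segment, and the authors' deposited table gave it no adjusted p. It had 2, 2, 0 and 0 reads in YA, YB, YC and YE and 5, 7 and 149 in W3, W4 and W6, so its level rested on W6. Without that library its mean fell below 10 and it was not tested, Igkv6-15 missed the threshold (limma adjusted p = 0.0778) and Ighv1-53 was also too low to test. The calls without W6 were 2 higher, Iglv3 and Ighv1-59, and 1 lower, Ighv9-3 (-1.33; limma adjusted p = 0.032). Ighv1-59 passed the filter there only through W3.

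The segments that dominated single libraries did not pass between the groups with limma, and several of them passed with the count-based tests. Ighv11-2 had 34.9, 79.4, 75.7 and 43.0 normalized counts in YA, YB, YC and YE and 5.12, 13.1 and 1277 in W3, W4 and W6. Its log2 fold change was -0.22 ± 1.61 (limma adjusted p = 0.932), although the aged mean of 432 exceeded the young mean of 58.2, with W3 and W4 below all young libraries. edgeR and DESeq2, which weigh counts rather than logarithms, gave log2 fold changes of 2.93 and 2.89 in the other direction (edgeR adjusted p = 0.129, DESeq2 adjusted p = 0.152). Ighv12-3 and Igkv4-91 had log2 fold changes of 2.11 ± 0.85 and 2.14 ± 0.84 (limma adjusted p = 0.0776 and 0.0694), and both passed without W3 (limma adjusted p = 0.0159 and 0.0241). Ighv12-3 was called higher by edgeR and DESeq2 (edgeR adjusted p = 0.0409, DESeq2 adjusted p = 0.0170) and in the authors' deposited table (adjusted p = 0.0243). Igkv4-91 was called higher by DESeq2 (adjusted p = 0.0363) and not by edgeR (adjusted p = 0.0506) or in the authors' deposited table (adjusted p = 0.0503). Ighv1-59 had 0 or 1 read in each young library and 944, 6 and 1 in W3, W4 and W6 (4.24 ± 1.72; limma adjusted p = 0.0784). Iglv1 stood at 22.1 to 36.3 normalized counts in young wild type and at 1051, 28.4 and 48.5 in W3, W4 and W6 (1.92 ± 0.92; limma adjusted p = 0.13). edgeR called both higher (edgeR adjusted p = 0.00833 for Ighv1-59 and 0.0155 for Iglv1), while DESeq2 and the authors' deposited table gave neither an adjusted p. limma called Ighv1-59 without W6 (limma adjusted p = 0.0206) and Iglv1 without W4 (limma adjusted p = 0.02). Ighv1-59 held 98.6% of its summed normalized count in W3 and passed the filter for testing only through that library. Its tests, with edgeR and with limma, are thus not independent of that filter.

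**Figure D4:**
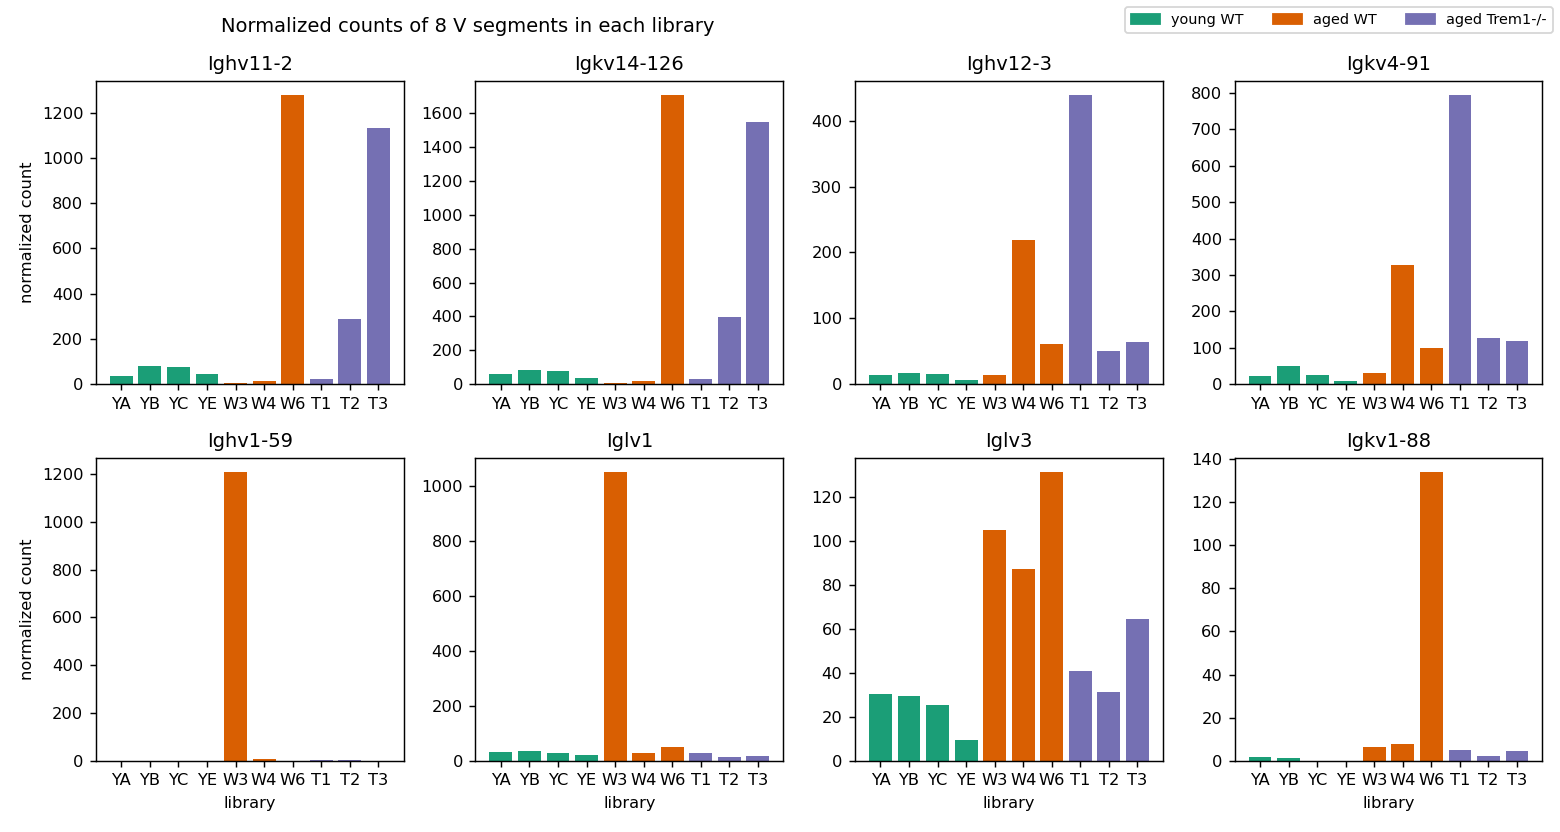
Normalized counts of 8 V segments in each library, with bars coloured by group and labelled by library; each panel has its own linear axis from 0. Iglv3 is raised in all 3 aged wild-type libraries (87.3 to 131), while Ighv1-59 and Iglv1 are high in W3 alone (1208 and 1051).

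Other immunoglobulin genes moved in the same direction in aged wild type. Constant region genes were higher for 6 of 8 tested and lower for 0, among them Ighm (2.10 ± 0.29 on the log2 scale; limma adjusted p = 0.00047) and Igkc, the kappa constant region (1.77 ± 0.42; limma adjusted p = 0.0075). Joining segments were higher for 4 of 5 tested, and all 3 tested factors of immunoglobulin promoters were higher, including Pou2af1, the B cell coactivator that works with octamer-binding factors (1.80 ± 0.19; limma adjusted p = 0.000151). Of recombination and class switching genes, 1 of 4 tested was higher. That gene was Prkdc, a DNA repair kinase (0.31 ± 0.11; limma adjusted p = 0.0445). Rag1 and Rag2, the recombinase genes, had at most 3 reads in any library, and none of the 3 surrogate light chain genes of precursor B cells was high enough to test.

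Cell type markers were also read from this fit. B cell markers were higher in aged wild type for 12 of 13 tested and lower for 0, B-1 cell markers for 9 of 10 (1 lower), T cell markers for 7 of 8, plasma cell markers for 2 of 9, and macrophage markers were lower for 9 of 12 and higher for 0. The lower B-1 list gene was Cd9. The B-1 cell and T cell lists moved in the same direction, and which cells the transcripts of these lists came from was not tested. Jchain, a gene of the plasma cell list that encodes the joining chain of secreted IgM and IgA, stood at 0 to 21.6 normalized counts in single libraries. The part of these markers in the V results was not tested.

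Comparison of the libraries labelled Trem1-/- with aged wild type asks whether deletion alters the aged state. It shares the aged wild-type libraries with the first comparison. Of the 29 tested V segments, limma called 0 higher and 1 lower (0 and 4 at an unadjusted p of 0.05; edgeR 0 and 5, DESeq2 0 and 1), against 11.5% and 6.82% of all genes tested. The lower one was Iglv3, at 40.9, 31.2 and 64.2 normalized counts in T1, T2 and T3, all below the lowest aged wild-type value of 87.3, as for 15.5% of all genes tested (log2 fold change -1.27 ± 0.40; limma adjusted p = 0.0485). Its call was lost without W3 or W6, without T1 or T2, without YA, YB or YC, which share the estimate of spread, with a pseudocount of 0.5 and with all genes of a mean of at least 1 tested; adjusted p over these limma fits ranged up to 0.154.

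Iglv3 was the 1 segment called with limma in the fit of all 10 libraries, and other settings called more. edgeR also called Igkv1-88, Ighv5-16, Ighv1-59 and Iglv1 lower (edgeR adjusted p = 0.0385, 0.0462, 0.0336 and 0.0282), each of which had most of its reads in 1 aged wild-type library. Igkv1-88, Ighv5-16 and Ighv1-59 passed the filter of 10 only through such a library, so their tests are not independent of the filter. With genes of a mean of at least 1 tested, limma called Igkv4-55 lower (limma adjusted p = 0.0199). Igkv4-55 too had most of its reads in 1 aged wild-type library, W4 (51 of 82 reads). Iglv1 stood at 28.6, 14.4 and 17.2 normalized counts in T1, T2 and T3 (-2.51 ± 0.98; limma adjusted p = 0.0951), and the aged wild-type mean rested on W3. Without W4 it was called lower by limma as well (-3.49 ± 0.90; limma adjusted p = 0.0159). Ighv11-2 and Igkv14-126 had log2 fold changes of 2.04 ± 1.72 and 2.32 ± 1.79 (limma adjusted p = 0.433 and 0.39). Without W6, which they dominated, both passed as higher (4.41 ± 1.20 and 4.81 ± 1.23; limma adjusted p = 0.0434 and 0.0353). Their call thus turned on W6.

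Beside these values, B cell markers were lower in the libraries labelled Trem1-/- for 5 of 13 tested, B-1 cell markers for 8 of 10 (1 higher, Cd9) and T cell markers for 7 of 8, and macrophage markers were higher for 8 of 12. Constant region genes were lower for 3 of 8, namely Ighd, Iglc1 and Iglc2, of joining segments 1 of 5 was lower (Ighj2), and of promoter factors 2 of 3 were lower. The part of these markers in the V results was not tested.

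Against young wild type, the libraries labelled Trem1-/- had 0 V segments called higher and 0 called lower with limma (5 and 1 at an unadjusted p of 0.05), where 0.591% and 0.33% of all genes were called. This comparison shares libraries with both others. Called with edgeR there were 0 and 0, and with DESeq2 3 higher (Ighv12-3, Igkv4-91 and Igkv19-93) and 0 lower. Igkv4-91 had 21.8, 50.5, 25.2 and 8.14 normalized counts in YA, YB, YC and YE and 793, 126 and 119 in T1, T2 and T3. The groups did not overlap (8.05% of genes were higher in this way), with a log2 fold change of 3.32 ± 0.84 and a limma adjusted p of 0.0864.

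Ighv12-3, the heavy chain partner of Igkv4-91, had 13.9, 16.6, 15.6 and 6.97 normalized counts in the young libraries and 438, 50.5 and 64.2 in those labelled Trem1-/- (3.06 ± 0.85; limma adjusted p = 0.119). Its groups did not overlap either. Both segments passed in a fit of these 2 groups alone (limma adjusted p = 0.0365 for each). Ighv9-3, second in every young library, had 12.8 to 25.2 normalized counts in young libraries and 6.41 to 11.2 in T1 to T3 (-1.01 ± 0.40; limma adjusted p = 0.268).

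**Figure D5:**
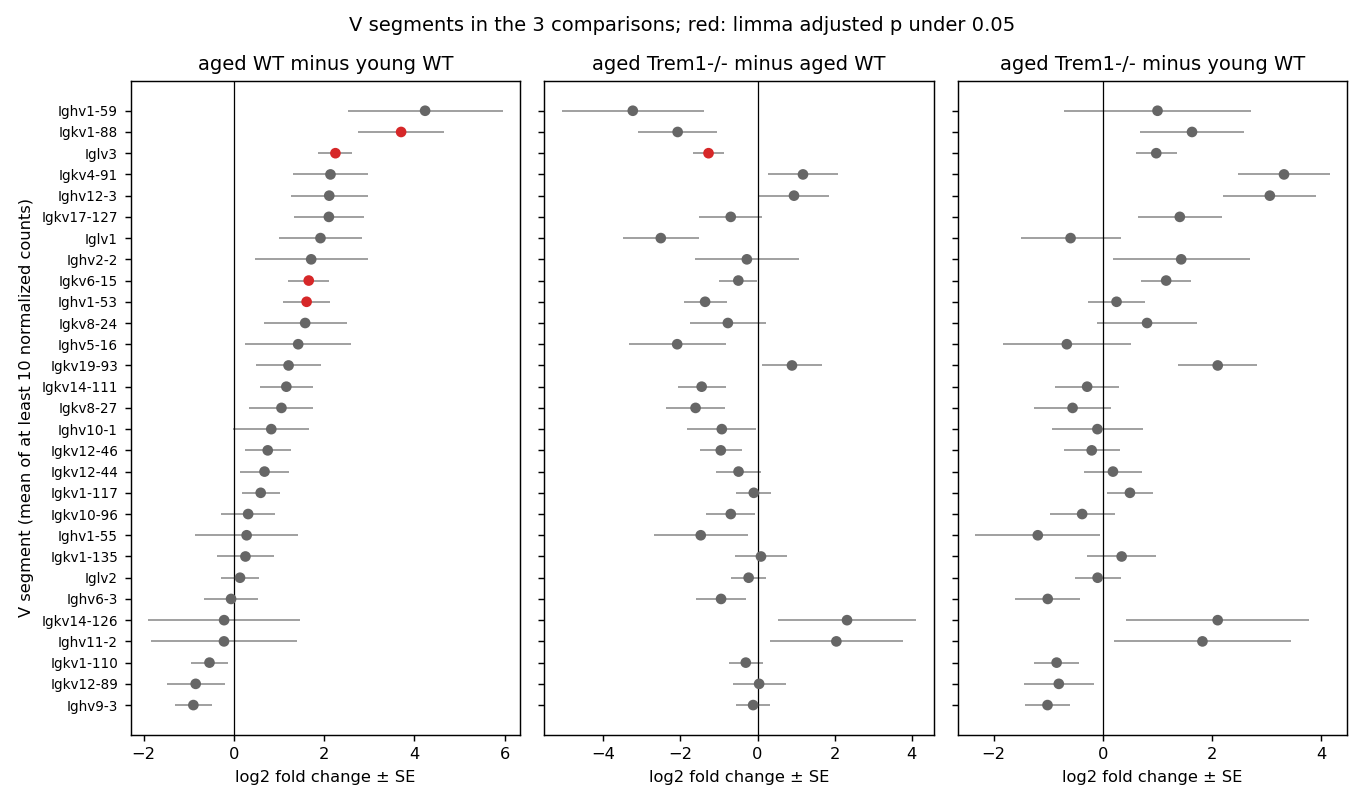
Log2 fold change of normalized count + 1 with its SE for the 29 V segments with a mean of at least 10, in the 3 comparisons; red points have a limma adjusted p under 0.05. Aged wild type shows 4 red points on the higher side, and the second panel 1 on the lower side, while error bars are wide for Ighv11-2, Igkv14-126 and Ighv1-59 (SE of 1.61 to 1.84 in the first 2 panels).

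V families, groups of segments related in sequence, varied between aged libraries as their leading members did. The Ighv1 family, with 34 members here, held 28.8% to 36.9% of heavy V reads in young wild type, 93.4%, 31.1% and 13.1% in W3, W4 and W6, and 9.82% to 18.2% in T1 to T3. The Igkv4 family, with 17 members, held 11.6% to 14.5% of kappa V reads in young wild type, 18.8%, 42.3% and 5.87% in aged wild type and 65.9%, 15.8% and 7.49% in the libraries labelled Trem1-/-. The Igkv1 family, with 8 members, held a lower share in every aged library (5.48% to 13.9%) than in every young one (19.1% to 23.9%). The same separation held for the Ighv6, Ighv7, Ighv8, Ighv9, Ighv14, Igkv9 and Igkv15 families. Shares fall where leading segments rise, so a lower share need not mean lower counts.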

How the data were processed

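RNA from primary mouse peritoneal macrophages was converted to full-length cDNA and sequenced, per the labels. Per the submitters' processing notes, the tools included DESeq2 1.20.0, featureCounts 1.5.0-p3, STAR and fastp, with the GRCm38 build. Strand, multi-mapping and annotation settings were not given in the sources used here. The authors deposited 1 normalized count (signal) per gene and library, in which 100% of values were whole multiples of the worth of 1 read (tolerance 1e-06), which gave back whole reads. They also deposited a log2 fold change, a score (the test statistic) and p-values for aged against young wild type.

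From these files, usage was computed from recovered reads as the share of a locus's member reads, with exact binomial intervals. limma 3.58.1 (trend, R 4.3.3) tested log2(normalized count + 1) in 11506 genes with a mean of at least 10, in 1 model of 10 libraries and 3 groups, adjusted by Benjamini-Hochberg per comparison, with calls at 0.05. Such fold changes understate the change of low genes. Alternatives were edgeR 4.0.16 and DESeq2 1.42.0 on recovered reads, TMM scaling, other pseudocounts and filters, only the groups compared, each library left out, reads per exonic base, omission of segments sharing sequence, omission of the leading segment and equal depth. Scripts were tested on simulated data. A floor of 3 reads equals 1.85 to 3.84 normalized counts.

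Segment positions and lengths came from GENCODE M21 on GRCm38, matched by symbol for all 143 members. The name rule was: the most used segments per locus, leaders of each library, the 5 smallest p per comparison, the known B-1 segments, neighbours of the threshold, and the 6 of widest usage. Other names came from lists of B cell, B-1 cell, plasma cell, T cell and macrophage markers, constant regions, joining segments, recombination genes, promoter factors and surrogate light chains. Members, lists and rules were chosen with earlier results of these data known.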

Additional observations from a re-analysis of the deposited data

Results flagged for a closer look

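In 6 of 34 groups of 4 libraries examined, all of young wild type, 1 library lay far from the other 3; chance flags about 1 in 20 groups. YA stood apart in the Ighv11-2 share (10.4% of heavy V reads, which is also its leading heavy share) and in the heavy inverse Simpson number (32.6). YE stood apart in the Iglv1 share (57.6% of 33 lambda V reads, which is also its leading lambda share), with 19 Iglv1 reads. YB stood apart in the Ighv9-3 share, 5.07% against 6.75% to 7.02%, and its exact binomial 95% interval of 3.47% to 7.12% covers the other 3. The aged groups hold 3 libraries each and were not examined in this way.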

How the results depend on the processing

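Counts of called segments moved with the processing in all 3 comparisons. In aged against young wild type, the 4 V segments called higher became 9 with edgeR, 10 with genes of a mean of at least 1 tested, 12 with every gene that had a read, and 2 to 6 with 1 library left out. The 0 called lower became 1 with either wider filter and 0 to 1 with 1 library left out. In the comparison of the aged groups, 0 to 2 were higher with 1 library left out, and the 1 called lower became 5 with edgeR, 0 with a pseudocount of 0.5, 2 with every gene that had a read and 0 to 2 with 1 library left out. For the libraries labelled Trem1-/- against young wild type, the 0 called higher became 3 with DESeq2, 2 with every gene that had a read, 2 with only the groups compared, and 0 to 2 with 1 library left out. No paired analysis was possible because young replicates carry letters and the aged groups share only the number 3. Iglv3 was called higher in aged wild type under every setting run (log2 fold change 1.87 to 2.41). Ighv1-53 was lost without YA (limma adjusted p = 0.0501), YC or YE and was too low to test without W3 or W6. In the same comparison the log2 fold change of Ighv11-2, uncalled throughout, turned from -0.22 to 2.93 with edgeR and 2.89 with DESeq2 and was -2.59 to 1.26 with 1 library left out. That of Igkv14-126 turned from -0.22 to 3.18 with edgeR, 3.15 with DESeq2 and 0.014 with a pseudocount of 4, and was -2.70 to 1.53 with 1 library left out. Between the aged groups, Ighv12-3 was at -0.039 to 1.90 and Ighv9-3 at -0.38 to 0.32 with 1 library left out. Without each library's leading segment, mean heavy inverse Simpson numbers became 38.8, 20.8 and 17.2 in young wild type, aged wild type and libraries labelled Trem1-/-, and leading shares 7.97%, 17.2% and 18.8%. For kappa chains they became 21.9 (young) and 18.3 (labelled Trem1-/-), with leading shares of 11.0% and 18.4%. Omission of members sharing at least 20% of their 50-base windows took out 83 of 143 members. Among these were Ighv11-2, the leader of all young libraries and of W6, T2 and T3, and Ighv1-59, the leader of W3. The heavy inverse Simpson number of the rest became 9.48 in aged wild type and 4.40 in the libraries labelled Trem1-/-. The young heavy leading share became 10.8%. For young kappa chains the inverse Simpson number became 7.17 and the leading share 30.7%. Not every group is given for this omission, so these values do not show whether young and aged libraries still differed under it. At equal depth, mean heavy segments numbered 49.7, 25.3 and 28.7, and kappa segments 45.8, 40.6 and 31.8. Few reads limit most members: 114 of 143 were too low to test. The cause of these shifts was not tested.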
